A study of Mus musculus with 20 samples.

Results

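The genes described here are the eukaryotic translation initiation factors, found as every row of the read count table whose symbol starts with Eif1 to Eif6. The pattern matched 58 of the 29915 rows. Of these, 54 carry names of initiation factors or of proteins tied to them, among them EIF2 kinases and EIF4E-binding proteins. They are called factor rows here, though not all act in initiation, as with the exon junction helicase Eif4a3. The other 4 (Eif2c1 to Eif2c4) were older symbols of the Argonaute genes, which are given apart. No termination factor carries a symbol of this form, so termination was described from a separate list. All but 1 of the 54 factor rows passed the low-count filter, and the exception, the oocyte form Eif4e1b, had no read in any library.

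The counts came from poly(A) RNA of livers of male mice on chow. The 4 groups were refed mice with the hepatocyte K556R form of Prox1, fasted K556R mice, refed wild-type mice and fasted wild-type mice, with 5 libraries each. K556R, a form of the transcription factor Prox1 that cannot carry the small protein SUMO at that lysine, was switched on in hepatocytes with Cre at an age of 8 weeks, and both genotypes were sampled 11 weeks later, between Zeitgeber times 15 and 17. The titles call the wild-type mice Ctrl and the K556R mice Cre, so an effect of Cre and one of K556R cannot be told apart, and cells of the liver other than hepatocytes keep their own Prox1.

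The titles mark 14 of the 20 libraries as batch 1, without saying what a batch is. The 6 libraries of batch 2 comprised 3 from K556R refed livers and 1 from each of the other groups, so batch was a term of every fit. Total counts ranged from 33746054 to 50647297. The hepatocyte markers Alb, Ttr, Apoa1 and Cps1 summed to 91960 to 106746 CPM (counts scaled to a common library size) in K556R refed livers and 117318 to 124614 CPM in K556R fasted livers, without overlap, and to 97189 to 104143 CPM in wild-type refed and 91542 to 130416 CPM in wild-type fasted livers. On refeeding Alb and Apoa1 were called lower in K556R livers, and Apoa1 was called lower and Ttr higher in wild-type livers. The part of this shift in the results below was not tested. Libraries K556R refed 1_b1 and K556R fasted 1_b1 stood apart, with 30.4 and 12.3 CPM summed over 5 proliferation genes against at most 6.84 CPM in any wild-type library. Prox1 had 85.0, 94.0, 126, 109 and 108 CPM in K556R fasted livers, against 186, 223, 121, 203 and 190.5 CPM in wild-type fasted livers. It had 80.8, 57.7, 79.5, 70.1 and 89.4 CPM in K556R refed livers, against 97.4, 93.3, 113, 114 and 133 CPM in wild-type refed livers. The refed genotypes did not overlap, the fasted ones did, and neither difference passed the test over all genes (edgeR quasi-likelihood test, log2 change -0.82 with adjusted p = 0.0666 when fasted and -0.61 with adjusted p = 0.559 when refed). Values of single libraries are listed throughout in the order 1_b1, 2_b1, 3_b1, 4_b1 and 1_b2, and for K556R refed livers 1_b1, 2_b1, 1_b2, 2_b2 and 3_b2, where b marks the batch.

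Initiation is the step at which a ribosome is placed on an mRNA and finds its start codon. The factor eIF2 brings the first methionyl-tRNA to the small subunit, eIF3 and eIF1 hold that subunit open for scanning, and eIF4F, made of the cap-binding protein eIF4E, the scaffold eIF4G and the helicase eIF4A, loads it at the 5′ cap. Both entry points are switched by nutrients in liver: kinases that phosphorylate eIF2 slow its recycling by eIF2B, and EIF4E-binding proteins withhold eIF4E from eIF4G until mTORC1 phosphorylates them. These switches act on proteins, and what was measured here is mRNA. Several factors have near-identical copies (Eif1 and Eif1b, Eif1a and Eif1ax, Eif2s3x and Eif2s3y, Eif4a1 and Eif4a2, Eif5a and Eif5a2), and how reads shared by such copies were counted is not given in the sources used here, so the division of counts within each pair is uncertain.

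The promoters of 4 members are shown first, because these genes include the largest fall among the factors of wild-type livers (Eif4b), a pair of helicase genes whose mRNAs moved in opposite directions there (Eif4a2 and Eif4a1) and a factor that rose (Eif5a). Each run is the RefSeq sequence (GRCm38.p6) before the start site, on the gene's strand, cut where an annotated exon begins, with the E-box CACGTG in capitals. Eif4b lies on the plus strand at chr15:102073523-102073772, Eif4a2 on the plus strand at chr16:23107218-23107443, Eif4a1 on the minus strand at chr11:69672424-69672673 and Eif5a on the minus strand at chr11:69921387-69921636. Eif5a has 6 listed start sites, and the one shown has the largest number of GENCODE coding transcripts starting within 20 bases of it, 3 of 13. Eif4b, Eif4a2 and Eif4a1 have 1 listed start site each. Of their coding transcripts, 1 of 2 for Eif4b, 1 of 6 for Eif4a2 and 0 of 1 for Eif4a1 start within 20 bases of it. The annotated Eif4a1 gene itself begins at that site, at base 69672423.
Eif4b: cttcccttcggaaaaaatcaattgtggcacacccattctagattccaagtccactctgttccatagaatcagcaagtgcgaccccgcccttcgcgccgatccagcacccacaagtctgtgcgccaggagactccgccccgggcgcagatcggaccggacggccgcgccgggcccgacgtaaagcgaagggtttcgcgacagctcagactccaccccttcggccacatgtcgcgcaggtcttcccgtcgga
Eif4a2: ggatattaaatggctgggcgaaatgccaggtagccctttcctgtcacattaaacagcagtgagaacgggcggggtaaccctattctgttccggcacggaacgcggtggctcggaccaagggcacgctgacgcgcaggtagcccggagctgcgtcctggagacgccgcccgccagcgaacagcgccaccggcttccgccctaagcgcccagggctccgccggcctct
Eif4a1: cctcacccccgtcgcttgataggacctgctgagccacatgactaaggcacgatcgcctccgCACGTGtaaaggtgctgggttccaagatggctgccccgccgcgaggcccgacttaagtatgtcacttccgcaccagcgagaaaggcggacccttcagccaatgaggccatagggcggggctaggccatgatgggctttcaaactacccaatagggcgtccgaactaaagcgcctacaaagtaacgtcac
Eif5a: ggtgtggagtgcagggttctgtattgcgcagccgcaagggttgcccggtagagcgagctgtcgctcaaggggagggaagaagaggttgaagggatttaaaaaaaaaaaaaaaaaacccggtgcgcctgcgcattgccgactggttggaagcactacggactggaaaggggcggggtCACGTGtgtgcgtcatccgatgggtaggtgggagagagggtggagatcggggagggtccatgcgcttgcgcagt

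The E-box, the site bound by Myc, Usf and related factors in general, was searched as CACGTG, which reads the same on both strands, in windows of 250 bases before to 50 after each start site. It was present in at least 1 window of 10 of the 43 factor genes that had one, and in 12 of their 56 windows, against 7.15% of all 32851 RefSeq windows. Among genes that rose on refeeding in wild-type livers, 4 of 9 with a window held it (Eif1b, Eif4a1, Eif4e and Eif5a), and among those that fell, 1 of 8 (Eif3a). Counted by window this was 6 of 15 and 1 of 8, and Eif5a alone has 6 windows. Some of these overlap, and the E-box at -74 in Eif5a window 2 and at -185 in window 3 is the same site. Counts by window thus count that site more than once. Eif4e held the E-box in window 2 and not in window 1. In K556R livers the E-box was present in 2 of 7 genes that rose and 1 of 9 that fell, or 4 of 13 and 1 of 11 windows. Among genes that rose in both genotypes it was present in 2 of 6 (Eif4e and Eif5a), or 4 of 12 windows. The element TGATGNAA, searched on both strands and known as a site of C/EBP-ATF dimers in stress responses, was present in 1 factor gene, Eif2s3x, and in 3.97% of all windows. A C followed by at least 4 pyrimidines at the start site, the mark of mRNAs with a 5′ terminal oligopyrimidine tract, was present for Eif2s3x and Eif3f and in 2.51% of all windows. A match is a run of letters and was not tested as a binding site, and its absence says only that those letters are not in the window.

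Levels of different genes were compared as CPM per kb of exon length in GENCODE M21, counting once every base in any annotated exon of the gene. The range over the 54 factor rows ran from 0 to 139 CPM per kb as the mean of 20 libraries, with a median of 12.3 CPM per kb. Eif1, which guards start codon choice, was highest at 139 CPM per kb, followed by Eif5a at 129.6, the helicase Eif4a1 at 72.4, and the scaffolds Eif4g1 at 69.5 and Eif4g2 at 61.4 CPM per kb. Within eIF2B, whose 5 subunits form 1 complex, Eif2b3 was lowest per kb in every group: it had 2.04 ± 0.194 CPM per kb in wild-type refed livers and 1.37 ± 0.182 CPM per kb in wild-type fasted livers, where Eif2b5 had 17.6 ± 0.535 and 14.4 ± 0.775 CPM per kb (SD, n = 5 each). The size of such gaps depends on the lengths, 6.52 kb for Eif2b3, 1.885 kb for Eif2b2 and 2.595 kb for Eif2b5. Without length these genes averaged 10.8, 11.6 and 41.7 CPM over 20 libraries. The cap-binding Eif4e had 8.61 ± 0.494 CPM per kb in wild-type refed and 6.56 ± 0.301 CPM per kb in wild-type fasted livers, below its inhibitor Eif4ebp2 with 12.8 ± 1.03 and 18.6 ± 1.22 CPM per kb. Factor rows took 0.509 ± 0.0190% of all counts in wild-type refed livers and 0.523 ± 0.0115% in wild-type fasted livers, and 0.508 ± 0.0175% in K556R refed and 0.507 ± 0.00832% in K556R fasted livers (SD, n = 5 each).

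**Figure D1:**
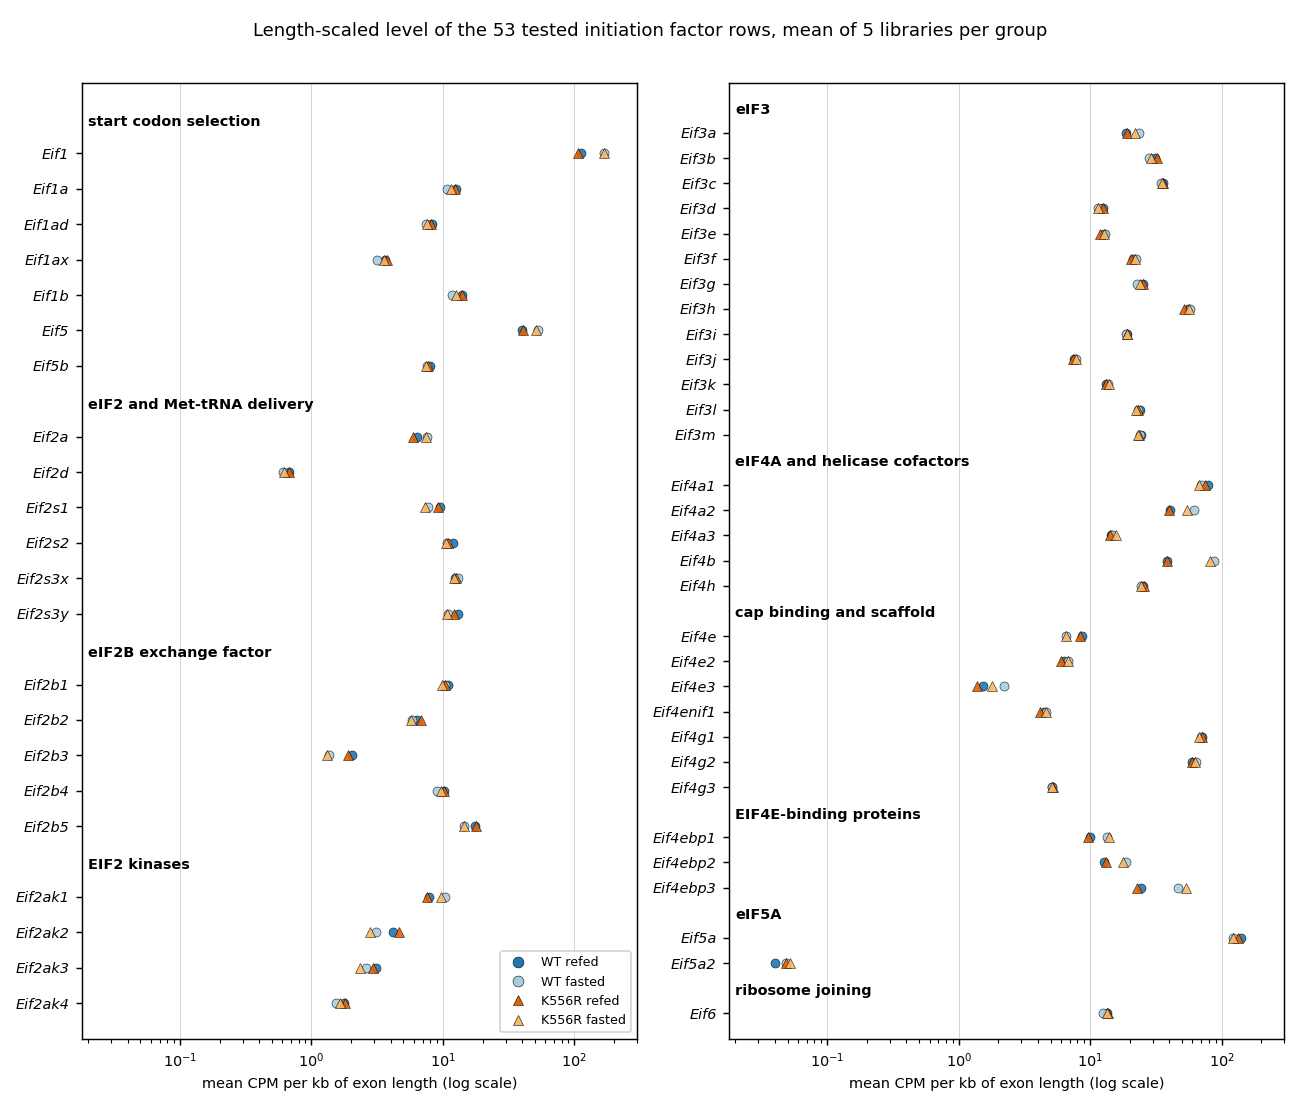
Mean CPM per kb of exon length (x axis, log scale) of the 53 tested initiation factor rows, ordered by role, with circles for wild type and triangles for K556R and dark symbols for refed livers. Eif1 and Eif5a lie highest and Eif5a2 lowest, and the 4 groups of most genes fall on each other, while Eif4b, Eif4a2, Eif1 and the EIF4E-binding proteins show a gap between refed and fasted livers.

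Refeeding changed part of this set and left the larger part without a call, with about as many members higher as lower. In wild-type livers 21 of the 53 tested factor rows passed the edgeR quasi-likelihood test at an adjusted p of 0.05 (39.6%), against 45.1% of the 13894 genes tested. Of these, 10 were higher in refed livers and 11 lower, against 20.9% and 24.2% of all genes. In K556R livers 20 passed (37.7%), 8 higher and 12 lower, against 39.9% of all genes in either direction, 19.6% higher and 20.3% lower. At these settings both shares lay near those of all genes. The median log2 change of the factor rows was 0.05 in wild-type and 0.04 in K556R livers, beside -0.01 and 0.01 for all genes. In the same direction in both genotypes, 18 factor rows were called (34.0% of the 53, against 34.3% of all genes), 7 higher and 11 lower, 3 were called in wild-type livers alone and 2 in K556R livers alone, and none was called in opposite directions. No row passed the interaction test, so calls made in 1 genotype alone were not shown to differ from the other. The balance of directions depended on scaling: with upper-quartile factors 21 rows were called higher and 11 lower in wild-type livers, and 14 higher and 10 lower in K556R livers. With these factors 46% of all genes were called in either direction in wild-type and 40.5% in K556R livers. The share of the 53 factor rows called in either direction then lay above that of all genes in both genotypes. The median log2 change of all genes was then 0.06 in both genotypes. The balance also depended on single libraries. Without wild-type fasted 4_b1, 16 rows were called higher in wild-type livers, where 42.3% of all genes were called in either direction. Without K556R refed 2_b1, 8 were called lower in K556R livers, where 35.6% of all genes were called in either direction. Without both libraries that stood apart, 13 rows were called higher and 11 lower in wild-type livers, and 9 higher and 10 lower in K556R livers. The shares of all genes called in either direction were then 48.9% and 37.5%. Shares of all genes in 1 direction were not computed for the alternative settings, so counts in 1 direction have no like share beside them.

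**Figure D2:**
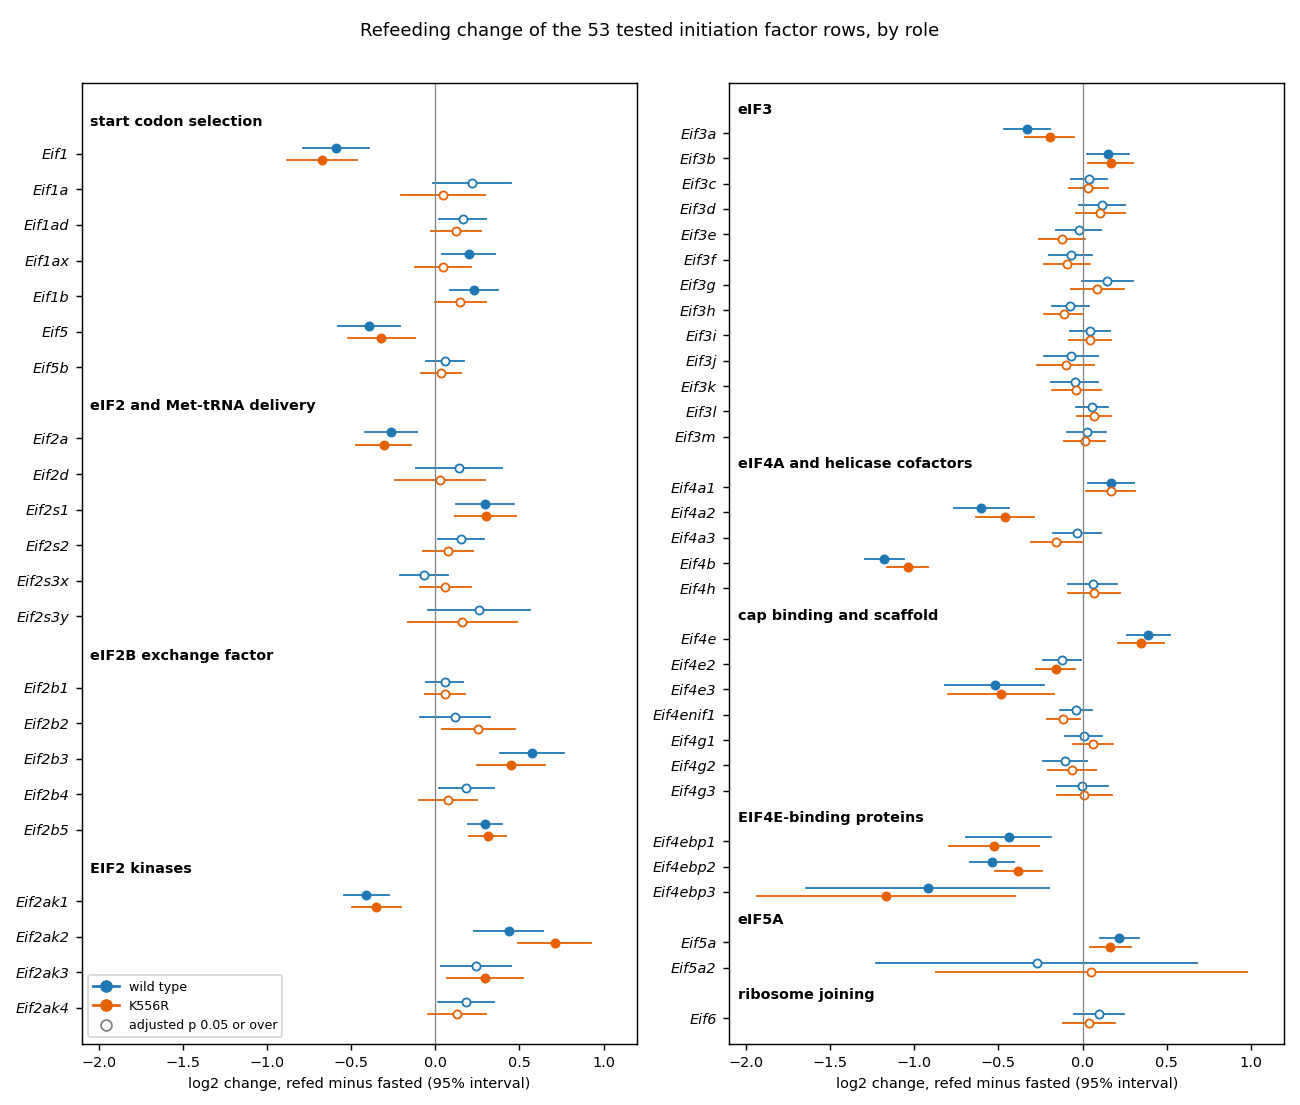
Log2 change on refeeding (refed minus fasted) with its 95% interval for the 53 tested factor rows by role, wild type in blue above K556R in orange, with filled symbols where the adjusted p was under 0.05. Eif4b lies farthest left in wild-type livers and Eif4ebp3, with its wide interval, in K556R livers, all 3 EIF4E-binding proteins lie left of 0 in both genotypes, and most eIF3 subunits lie on 0.

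Of the 7 rows grouped under start codon selection, Eif1 and Eif5 fell. Eif1 keeps the scanning ribosome from stopping at wrong codons, and Eif5 triggers GTP hydrolysis on eIF2 once the codon is found. Eif1 (chr11:100319885-100322096, plus strand) had 244, 221, 249, 230.2 and 234 CPM in wild-type refed livers, against 314, 340.3, 361, 444 and 312 CPM in wild-type fasted livers. It had, in K556R livers, 187, 245, 219, 219.6 and 239 CPM when refed, against 316, 324, 369, 388 and 375 CPM when fasted. Every refed library lay below every fasted library of its genotype, and the log2 change was -0.59 (SE 0.09, 0.664-fold, adjusted p = 3.97e-05) in wild-type and -0.67 (SE 0.10, 0.628-fold, adjusted p = 2.31e-05) in K556R livers. Eif5 had 256, 272, 275, 274 and 285 CPM in wild-type refed and 341, 336, 399, 391 and 324 CPM in wild-type fasted livers, with no overlap and a log2 change of -0.39 (SE 0.09, 0.761-fold, adjusted p = 0.00117). In K556R livers Eif5 had 279, 242, 305, 311 and 245 CPM when refed and 387, 370.2, 374, 329 and 290.4 CPM when fasted, where refed 1_b2 and 2_b2 overlapped the fasted range and the log2 change was -0.32 (adjusted p = 0.0108); without K556R refed 2_b1 its adjusted p was 0.0780. The changes of the other members were smaller. Eif1b, a close copy of Eif1, rose in wild-type livers (log2 change 0.23 with adjusted p = 0.00958) and had 0.15 (adjusted p = 0.111) in K556R livers. Eif1ax, which encodes the scanning factor eIF1A, had a log2 change of 0.20 (adjusted p = 0.0409) in wild-type and 0.04 (adjusted p = 0.705) in K556R livers, and the wild-type call held in 23 of 30 alternative settings. Eif1a, Eif1ad and Eif5b passed in neither genotype, with log2 changes of 0.22, 0.16 and 0.06 in wild-type livers.

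Of the 6 rows that encode eIF2 subunits or deliver initiator tRNA by other routes, Eif2s1 rose and Eif2a fell in both genotypes. Eif2s1 encodes eIF2α, whose serine is the target of the EIF2 kinases. It had 44.8, 41.5, 51.8, 46.8 and 50.3 CPM in wild-type refed livers, against 36.0, 36.5, 39.7, 42.5 and 37.2 CPM in wild-type fasted livers, and 50.1, 38.3, 48.7, 48.2 and 40.5 CPM in K556R refed livers, against 40.2, 35.2, 38.3, 33.5 and 35.2 CPM in K556R fasted livers. The refed and fasted ranges overlapped at their edges in both genotypes, and the log2 change was 0.29 (SE 0.08, 1.23-fold, adjusted p = 0.00649) in wild-type and 0.30 (SE 0.09, 1.23-fold, adjusted p = 0.00946) in K556R livers. The K556R call was lost in batch 1 alone (adjusted p = 0.103) and without K556R refed 1_b1, 1 of the libraries that stood apart (adjusted p = 0.0558). Eif2a, which can bring tRNA to the ribosome without GTP, had 38.2, 35.6, 40.8, 37.4 and 41.4 CPM in wild-type refed and 44.5, 46.0, 44.0, 54.0 and 43.9 CPM in wild-type fasted livers, without overlap. Its values were 38.9, 33.2, 38.4, 36.2 and 34.4 CPM in K556R refed and 49.3, 46.7, 47.8, 40.3 and 41.4 CPM in K556R fasted livers, again without overlap. The log2 change was -0.26 (adjusted p = 0.00607) in wild-type and -0.31 (adjusted p = 0.00362) in K556R livers. The β subunit gene Eif2s2, the X-linked γ subunit gene Eif2s3x, its Y-linked copy Eif2s3y and Eif2d were not called in either genotype.

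The guanine nucleotide exchange factor eIF2B recharges eIF2 with GTP. All 5 of its subunit genes had a positive log2 change in both genotypes, and 2 of the 5 passed the test, the same 2 in each, a share of 40.0% near the 45.1% and 39.9% of all genes called in wild-type and K556R livers. Of the 13894 genes tested, 6801 had a positive log2 change in wild-type and 7057 in K556R livers. Eif2b3 had 14.4, 11.6, 14.1, 12.3 and 13.9 CPM in wild-type refed livers, against 8.12, 9.05, 7.41, 10.4 and 9.58 CPM in wild-type fasted livers. K556R livers gave 11.6, 10.2, 13.7, 13.9 and 12.7 CPM when refed, against 7.94, 7.72, 9.24, 7.69 and 10.1 CPM when fasted. The refed libraries lay above the fasted ones in both genotypes, with the smallest gap between K556R refed 2_b1 and K556R fasted 1_b2. The log2 change was 0.57 (SE 0.09, 1.49-fold, adjusted p = 4.03e-05) in wild-type and 0.45 (SE 0.10, 1.37-fold, adjusted p = 0.000964) in K556R livers, the largest rise among the factor rows of wild-type livers. Eif2b5 encodes the catalytic subunit. It had 45.7, 44.5, 47.2, 47.1 and 44.2 CPM in wild-type refed and 37.3, 37.6, 37.4, 39.8 and 34.2 CPM in wild-type fasted livers, and 44.8, 47.5, 45.3, 45.5 and 48.3 CPM in K556R refed and 35.8, 37.6, 36.7, 37.9 and 39.7 CPM in K556R fasted livers. No libraries overlapped, and the log2 change was 0.30 (SE 0.05, 1.23-fold, adjusted p = 5.55e-05) in wild-type and 0.31 (SE 0.05, 1.24-fold, adjusted p = 7.45e-05) in K556R livers. Eif2b1, Eif2b2 and Eif2b4 had log2 changes of 0.06, 0.12 and 0.18 in wild-type and 0.06, 0.26 and 0.07 in K556R livers.

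The 4 EIF2 kinases, which each sense a different stress, did not move together. Eif2ak1, the heme-regulated kinase HRI, fell. It had 45.1, 47.7, 40.7, 43.7 and 43.7 CPM in wild-type refed livers, against 54.2, 56.5, 61.9, 63.0 and 57.9 CPM in wild-type fasted livers, and 42.8, 41.8, 44.7, 39.5 and 45.8 CPM in K556R refed livers, against 47.4, 58.1, 57.7, 53.2 and 56.2 CPM in K556R fasted livers. The groups were separate in both genotypes, with log2 changes of -0.41 (SE 0.07, 0.753-fold, adjusted p = 3.58e-05) and -0.35 (SE 0.07, 0.785-fold, adjusted p = 0.000394). Eif2ak2, the interferon-induced kinase PKR that binds double-stranded RNA, rose. It had 19.6, 21.1, 20.7, 22.0 and 23.4 CPM in wild-type refed and 15.1, 16.7, 15.2, 14.8 and 17.2 CPM in wild-type fasted livers, again separate, with a log2 change of 0.44 (SE 0.10, 1.35-fold, adjusted p = 0.00119). In K556R livers Eif2ak2 had 28.7, 18.2, 25.7, 23.2 and 23.5 CPM when refed and 13.4, 15.5, 15.7, 11.5 and 14.9 CPM when fasted, with a log2 change of 0.71 (SE 0.10, 1.64-fold, adjusted p = 1.90e-05). The highest of these values was in K556R refed 1_b1, the library with the highest proliferation sum, and Eif2ak2 was called in both genotypes in all 30 alternative settings, which include leaving that library out. Eif2ak3, the endoplasmic reticulum kinase PERK, had 20.7, 18.7, 19.5, 16.3 and 18 CPM in wild-type refed and 14.7, 16.9, 14.0, 18.5 and 14.5 CPM in wild-type fasted livers, with overlap and a log2 change of 0.24 (adjusted p = 0.055). Eif2ak3 had 14.9, 15.0, 18.4, 19.6 and 20.6 CPM in K556R refed and 15.6, 14.5, 14.3, 12.7 and 13.4 CPM in K556R fasted livers and passed the test at 0.30 (adjusted p = 0.0333), with a log2 ratio of 0.07 in batch 1 and 0.54 in batch 2, and the call held in 20 of 30 alternative settings. Eif2ak4, the amino acid sensor GCN2, had 11.0, 14.1, 13.8, 14.3 and 12.3 CPM in wild-type refed and 11.7, 11.7, 10.2, 12.6 and 11.5 CPM in wild-type fasted livers, and 14.3, 12.3, 13.7, 12.6 and 14.0 CPM in K556R refed and 12.3, 12.8, 11.3, 11.7 and 13.0 CPM in K556R fasted livers. Its groups overlapped and it was not called, with 0.18 (adjusted p = 0.0674) in wild-type and 0.13 (adjusted p = 0.232) in K556R livers.

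The large scaffold eIF3 was the least changed of the multi-subunit factors by count, with 2 of 13 rows called in each genotype (15.4%), against 45.1% of all genes in wild-type and 39.9% in K556R livers, and a median log2 change of 0.03 in wild-type and 0.01 in K556R livers. Eif3a, the core subunit that holds the complex together, had 159, 154, 173, 165 and 172 CPM in wild-type refed livers, against 204, 200.4, 226, 221 and 183 CPM in wild-type fasted livers, and 153, 159, 177, 177 and 165 CPM in K556R refed livers, against 191, 191, 206, 185 and 179.7 CPM in K556R fasted livers. The groups did not overlap in either genotype, and Eif3a fell, with log2 changes of -0.33 (adjusted p = 0.000373) in wild-type and -0.20 (adjusted p = 0.0303) in K556R livers. The K556R call held in 22 of 30 alternative settings and not without the 2 libraries that stood apart, where the adjusted p was 0.131. Eif3b, the other core scaffold subunit, had 108, 100.4, 111, 104 and 100 CPM in wild-type refed and 92.0, 90.6, 106, 97.9 and 85.0 CPM in wild-type fasted livers, and 103, 113, 106, 105 and 114 CPM in K556R refed and 92.4, 92.5, 97.5, 104 and 101 CPM in K556R fasted livers. Its groups overlapped, and its calls stood just inside the threshold (0.15 with adjusted p = 0.0489 in wild-type and 0.17 with adjusted p = 0.0418 in K556R livers), and were lost in 14 of the 30 alternative settings in each genotype. The other 11 subunits had log2 changes between -0.07 (Eif3h) and 0.15 (Eif3g) in wild-type livers.

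The helicase arm of eIF4F held the largest change of all the factors in wild-type livers. Eif4b encodes the cofactor that raises the activity of the eIF4A helicase and is phosphorylated downstream of mTORC1. Eif4b (chr15:102073773-102097173, plus strand) had 188, 172, 165, 167 and 167 CPM in wild-type refed livers, against 404, 399, 374, 409.7 and 359.6 CPM in wild-type fasted livers. K556R livers gave 169, 177, 172, 166 and 176 CPM when refed, against 367, 376, 388, 346 and 332 CPM when fasted. The highest refed library lay far below the lowest fasted one in both genotypes, and the spread within a group was small. The log2 change was -1.18 (SE 0.06, 0.442-fold, adjusted p = 2.64e-11) in wild-type and -1.04 (SE 0.06, 0.487-fold, adjusted p = 7.86e-10) in K556R livers, and by p it ranked 2 of 13894 genes in both. The batches gave the same picture, with log2 ratios of -1.20 and -1.10 in batches 1 and 2 of wild-type livers and -1.09 and -0.95 in those of K556R livers.

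Eif4a2 and Eif4a1 encode near-identical helicases. Eif4a2 (chr16:23107444-23114136, plus strand) had 208, 208, 218, 221 and 221 CPM in wild-type refed livers, against 310.4, 339, 317, 360.3 and 307 CPM in wild-type fasted livers, and 218, 179, 235, 228 and 196 CPM in K556R refed livers, against 281, 296, 332, 258 and 278 CPM in K556R fasted livers. Its groups did not overlap, and the log2 change was -0.60 (SE 0.08, 0.659-fold, adjusted p = 3.73e-06) and -0.46 (SE 0.08, 0.727-fold, adjusted p = 0.000186). Eif4a1 (chr11:69666936-69672423, minus strand) had 327, 319, 378, 347 and 329 CPM in wild-type refed and 269.9, 299, 322, 342 and 279 CPM in wild-type fasted livers, with overlap and a log2 change of 0.17 (adjusted p = 0.0424) that passed in 21 of 30 alternative settings. In K556R livers Eif4a1 had 331, 312, 329.9, 328 and 314 CPM when refed and 294, 278, 289, 287 and 299 CPM when fasted, without overlap, but the change missed the threshold at 0.17 (adjusted p = 0.0605). The count ratio of Eif4a1 to Eif4a2 within a library, which no scaling can move and which was chosen after the values were seen, was 1.57, 1.53, 1.73, 1.57 and 1.49 in wild-type refed and 0.869, 0.882, 1.01, 0.951 and 0.908 in wild-type fasted livers. In K556R livers it was 1.52, 1.74, 1.41, 1.44 and 1.60 when refed and 1.05, 0.939, 0.871, 1.11 and 1.08 when fasted. All refed libraries thus held more reads of Eif4a1 than of Eif4a2, while fasted libraries held about equal numbers. Eif4a3, a helicase of the exon junction complex, and the cofactor Eif4h were not called.

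**Figure D3:**
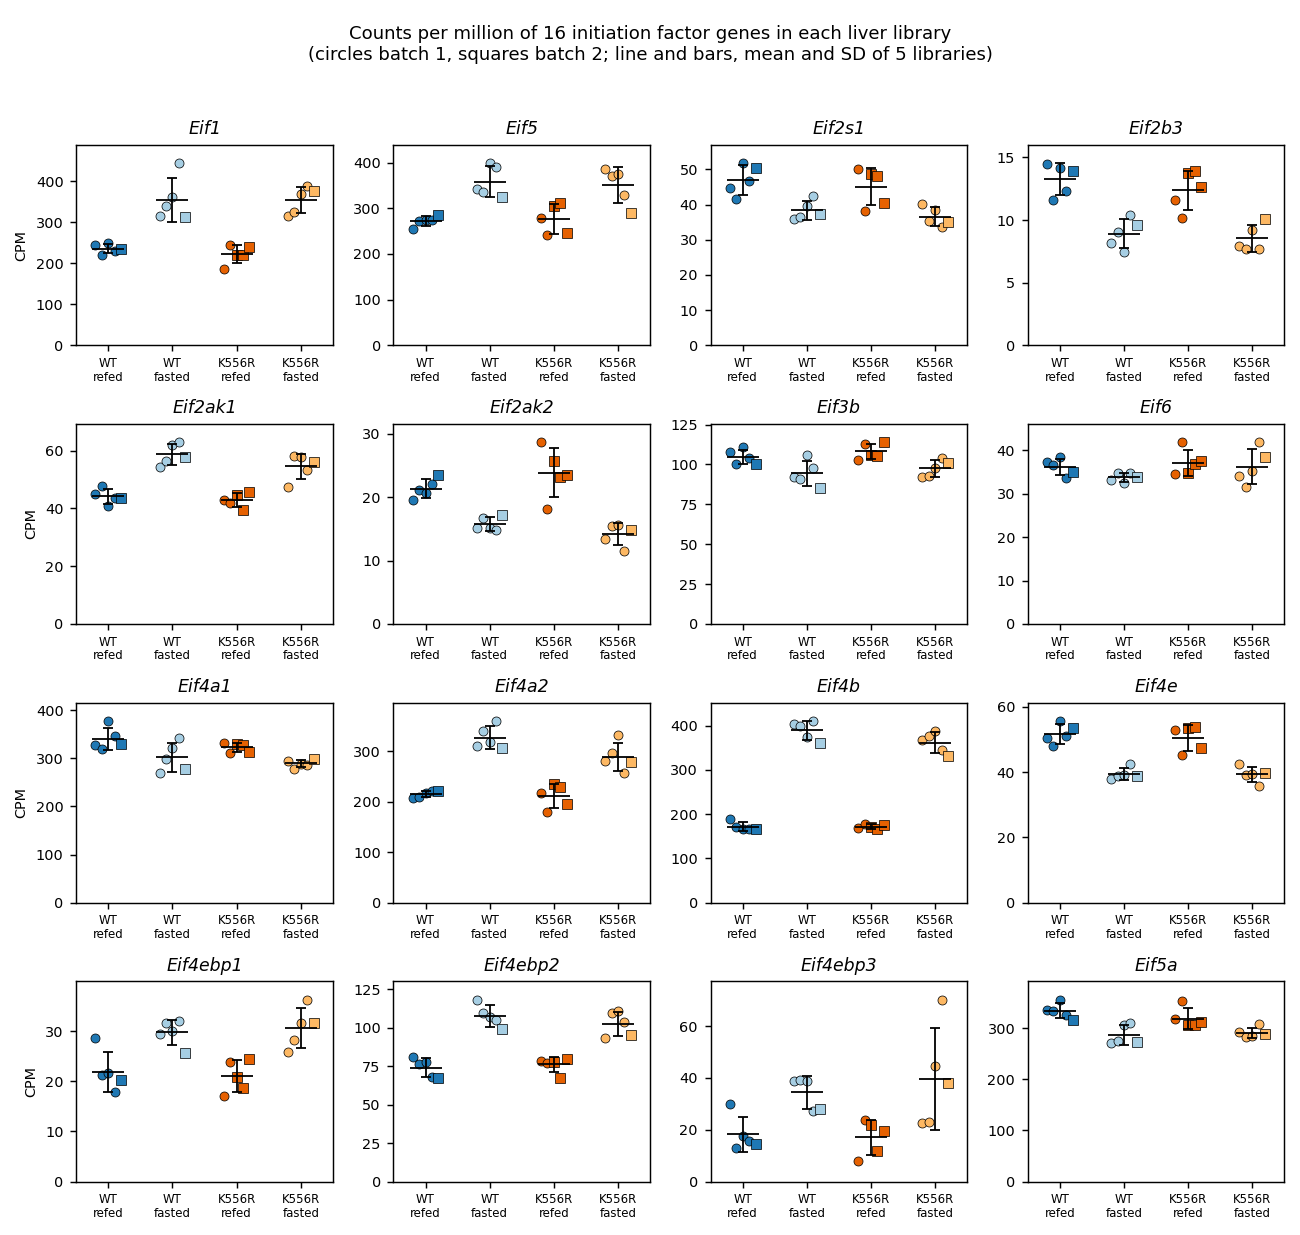
CPM (y axes, each from 0) of 16 initiation factor genes in each of the 20 libraries, refed left of fasted within each genotype, with circles for batch 1, squares for batch 2 and lines with bars for the mean and SD of 5 libraries. Eif4b, Eif4a2, Eif1 and Eif4ebp2 are lower and Eif4e, Eif2b3 and Eif2ak2 higher in every refed library than in any fasted library of the same genotype, and Eif6 overlaps throughout.

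Of the cap-binding genes, Eif4e rose and Eif4e3 fell in both genotypes. Eif4e (chr3:138526179-138559696, plus strand), which binds the cap, had 50.4, 48.0, 55.7, 51.0 and 53.5 CPM in wild-type refed livers, against 37.8, 38.9, 39.2, 42.5 and 38.7 CPM in wild-type fasted livers. In K556R livers Eif4e had 52.8, 45.3, 53.7, 53.8 and 47.3 CPM when refed, against 42.5, 39.0, 39.3, 35.7 and 39.9 CPM when fasted. Refed and fasted libraries were separate, with log2 changes of 0.39 (SE 0.06, 1.31-fold, adjusted p = 3.44e-05) and 0.35 (SE 0.07, 1.27-fold, adjusted p = 0.000243). Eif4e3, a weaker cap binder, was scarce: it had 4.25, 3.73, 3.23, 3.72 and 4.44 CPM in wild-type refed and 5.59, 6.72, 5.16, 4.28 and 6.0 CPM in wild-type fasted livers, and 3.40, 2.46, 4.41, 3.19 and 3.85 CPM in K556R refed and 4.36, 4.17, 5.55, 3.46 and 4.94 CPM in K556R fasted livers. The ranges overlapped in both genotypes, and its log2 change was -0.52 (adjusted p = 0.00464) in wild-type and -0.48 (adjusted p = 0.0137) in K556R livers. The K556R call was lost without the batch term (adjusted p = 0.0511), in batch 1 alone (adjusted p = 0.0549) and without K556R refed 2_b1 (log2 change -0.36, adjusted p = 0.0760). Eif4e2, which represses translation as a competitor at the cap, was called in K556R livers alone (-0.16 with adjusted p = 0.028, beside -0.12 with adjusted p = 0.0688 in wild-type livers), and not without the 2 libraries that stood apart, where the adjusted p was 0.105. None of the scaffolds Eif4g1, Eif4g2 and Eif4g3, nor the eIF4E transporter Eif4enif1, was called, and Eif4g1 had 513 ± 11.0 CPM in wild-type refed and 511 ± 17.3 CPM in wild-type fasted livers (SD, n = 5 each).

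All 3 genes of the EIF4E-binding proteins, which block the binding of eIF4E to eIF4G when hypophosphorylated, fell in both genotypes. Of all genes, 24.2% were called lower in wild-type and 20.3% in K556R livers. Eif4ebp2 had the lowest p of the 3. It had 80.5, 76.4, 77.8, 68.0 and 67.4 CPM in wild-type refed livers, against 118, 109.6, 107, 105 and 98.9 CPM in wild-type fasted livers, and 78.5, 77.2, 77.9, 67.5 and 79.3 CPM in K556R refed livers, against 93.4, 109, 110.5, 104 and 95.2 CPM in K556R fasted livers. The groups did not overlap, and the log2 change was -0.54 (SE 0.06, 0.687-fold, adjusted p = 9.20e-07) in wild-type and -0.38 (SE 0.07, 0.768-fold, adjusted p = 0.000118) in K556R livers. Eif4ebp1 had 28.6, 21.2, 21.6, 17.9 and 20.3 CPM in wild-type refed and 29.4, 31.5, 29.9, 32.0 and 25.7 CPM in wild-type fasted livers, where refed 1_b1 reached into the fasted range. Eif4ebp1 in K556R livers had 17.1, 23.9, 20.8, 18.6 and 24.5 CPM when refed and 25.8, 28.1, 31.5, 36.3 and 31.6 CPM when fasted, with no overlap. Its log2 change was -0.44 (adjusted p = 0.00562) in wild-type and -0.53 (adjusted p = 0.00258) in K556R livers. Eif4ebp3 was the most variable, with 29.8, 13.1, 17.7, 15.8 and 14.6 CPM in wild-type refed and 38.8, 39.4, 38.8, 27.1 and 28.1 CPM in wild-type fasted livers, and 8.0, 23.9, 21.7, 11.9 and 19.5 CPM in K556R refed and 22.5, 23.1, 44.4, 70.2 and 37.9 CPM in K556R fasted livers. Its ranges overlapped, its log2 change was -0.92 (SE 0.34, 0.528-fold, adjusted p = 0.0367) in wild-type and -1.17 (SE 0.36, 0.445-fold, adjusted p = 0.0166) in K556R livers, and the call held in 20 of 30 alternative settings in wild-type and 26 of 30 in K556R livers.

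The count ratio of Eif4ebp2 to Eif4e, also chosen after the values were seen, set the inhibitor beside its target within a library. It was 1.60, 1.59, 1.40, 1.33 and 1.26 in wild-type refed livers, against 3.13, 2.81, 2.73, 2.46 and 2.56 in wild-type fasted livers. In K556R livers it was 1.48, 1.70, 1.45, 1.26 and 1.68 when refed, against 2.20, 2.80, 2.81, 2.90 and 2.39 when fasted. Every refed ratio lay below every fasted ratio. The ratio of the kinases Eif2ak2 to Eif2ak1 moved the other way: it averaged 0.485 ± 0.0441 in wild-type refed and 0.270 ± 0.0287 in wild-type fasted livers, and 0.556 ± 0.0876 in K556R refed and 0.260 ± 0.0258 in K556R fasted livers (SD, n = 5 each), without overlap. Since each ratio was built from genes seen to move apart, no test is given.

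**Figure D4:**
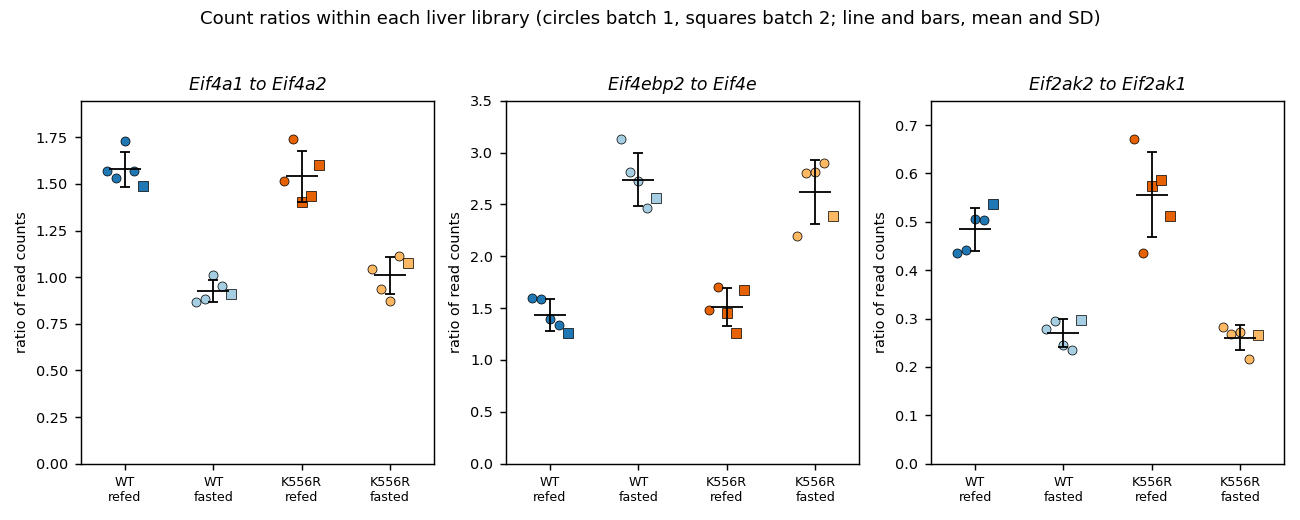
Ratio of read counts of 2 genes within each library (y axes from 0) for Eif4a1 to Eif4a2, Eif4ebp2 to Eif4e and Eif2ak2 to Eif2ak1, refed left of fasted, with circles for batch 1, squares for batch 2 and lines with bars for the mean and SD of 5 libraries. In each panel the refed libraries of both genotypes lie on one side of the fasted libraries, with no overlap.

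The remaining factors changed little. Eif5a, which relieves ribosomes stalled at proline runs and is the only carrier of hypusine together with Eif5a2, had 337, 335, 356, 326 and 317 CPM in wild-type refed livers, against 271, 275, 307, 311 and 273 CPM in wild-type fasted livers. Its values were, in K556R livers, 318, 354, 306, 306 and 312 CPM when refed and 292, 282, 285, 308 and 289 CPM when fasted, with a slight overlap. Its log2 change was 0.22 (adjusted p = 0.00328) in wild-type and 0.16 (adjusted p = 0.0312) in K556R livers, where the call held in 22 of 30 alternative settings. Eif6, which keeps the large subunit from joining early, had 37.3, 36.7, 38.4, 33.6 and 34.9 CPM in wild-type refed and 33.1, 34.8, 32.5, 34.8 and 33.7 CPM in wild-type fasted livers, and 34.6, 41.8, 34.8, 36.8 and 37.5 CPM in K556R refed and 34.0, 31.5, 35.2, 41.9 and 38.5 CPM in K556R fasted livers. It was called in neither genotype (0.10 with adjusted p = 0.285 and 0.04 with adjusted p = 0.712). Factor calls were made on both batches together, so agreement of sign between the batches was partly fixed in advance. All 21 calls of wild-type livers and all 20 of K556R livers had the same sign in batch 1 and batch 2, but some lay near 0 in 1 of them. Eif5 had log2 ratios of -0.49 in batch 1 and -0.02 in batch 2 of K556R livers, and Eif3a -0.31 and -0.06 there and -0.39 and -0.09 in wild-type livers. Batch 2 holds 1 library of each group other than K556R refed, so its ratios carry no spread. In bulk liver, fewer cells of a type and less RNA per cell cannot be told apart. The 5 endothelial markers summed to 69.8 to 79.4 CPM (median 73.6) in wild-type refed and 60.1 to 99.6 CPM (median 95.4) in wild-type fasted livers, and to 67.1 to 94.2 CPM (median 72.2) in K556R refed and 82.5 to 93.8 CPM (median 87.1) in K556R fasted livers. Of these, Lyve1 and Pecam1 were called lower on refeeding in wild-type livers and Lyve1 in K556R livers. Kupffer cell markers summed to 31.3 to 167 CPM and stellate cell markers to 38.9 to 81.3 CPM over all libraries, with refed and fasted ranges that overlapped in both genotypes. Of 5 stellate markers, 0 were called in wild-type livers and 1 was called higher on refeeding in K556R livers. No Kupffer marker was called. The log2 changes of the 4 tested ran from -0.45 to -0.28 in wild-type and from 0.14 to 0.33 in K556R livers. The part of all these markers in the results was not tested.

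Genotype called no factor row. K556R against wild type gave 0 of 53 in fasted livers, 0 of 53 in refed livers and 0 of 53 for the interaction with feeding, where the share of all genes called was 0% in each. At an unadjusted p under 0.05, 3 factor rows and 1136 of all genes passed in fasted livers, 0 and 693 in refed livers, and 0 and 553 for the interaction, and DESeq2 called 68, 6 and 1 of all genes and no factor row in any of the 3. The 4 lowest p in fasted livers were those of Eif1ax, Eif4a2, Eif4e3 and Eif4b. Eif1ax had 21.4, 18.5, 17.6, 18.9 and 18 CPM in K556R fasted livers, against 15.6, 16.4, 15.3, 17.8 and 18.1 CPM in wild-type fasted livers, with overlap, a log2 change of 0.18 and an adjusted p of 0.539 by edgeR. Eif4a2, Eif4e3 and Eif4b had log2 changes of -0.18 (adjusted p = 0.552), -0.31 (adjusted p = 0.581) and -0.11 (adjusted p = 0.646), from the values given above, and each group overlapped the other.

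In refed livers the 4 lowest p were those of Eif2b3, Eif3e, Eif4e3 and Eif2s2, all with lower means in K556R. Eif2b3 had a log2 change of -0.19 (adjusted p = 0.965) and Eif4e3 of -0.27 (adjusted p = 0.965). Eif3e, the eIF3 subunit also known as Int6, had 82.1, 72.6, 84.8, 85.3 and 74.8 CPM in K556R refed livers, against 83.8, 76.7, 89.6, 85.5 and 94.5 CPM in wild-type refed livers, with a log2 change of -0.13 (adjusted p = 0.965). Eif2s2 had 79.3, 70.3, 74.8, 75.1 and 69.0 CPM in K556R refed livers, against 73.5, 78.6, 81.8, 80.9 and 85.2 CPM in wild-type refed livers, with -0.10 (adjusted p = 0.965). The groups overlapped for all 4 genes. The refeeding response itself differed most, by p, for Eif2ak2, Eif4ebp2, Eif4b and Eif1ax. The change of Eif2ak2 was 0.27 larger in K556R livers on the log2 scale (95% interval -0.02 to 0.57, unadjusted p = 0.0693 in edgeR), and those of Eif4ebp2 and Eif4b were 0.16 and 0.14 above the wild-type change, that is smaller falls (intervals -0.03 to 0.35 and -0.03 to 0.31). That of Eif1ax was -0.15 (interval -0.38 to 0.08). The unadjusted 95% interval of the genotype difference lay within -0.5 to 0.5 on the log2 scale for 50 of 53 factor rows in fasted and in refed livers, the exceptions being Eif4e3, Eif4ebp3 and Eif5a2, and that of the interaction for 48 of 53.

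The genes around initiation were taken from lists chosen with earlier results of these data known, and their counts stand beside 45.1% of all genes called in wild-type livers (20.9% higher, 24.2% lower) and 39.9% in K556R livers (19.6% higher, 20.3% lower). Of 6 termination and recycling genes, 4 passed in wild-type livers (2 higher, 2 lower) and 5 in K556R livers (2 higher, 3 lower). Hbs1l, which rescues stalled ribosomes, averaged 52.0 ± 2.32 CPM in wild-type refed and 70.4 ± 6.19 CPM in wild-type fasted livers (SD, n = 5 each), with a log2 change of -0.44 (adjusted p = 1.52e-05). Etf1, the release factor that reads stop codons, fell likewise (-0.41 with adjusted p = 0.000149 in wild-type and -0.36 with adjusted p = 0.0012 in K556R livers), whereas Abce1, which splits ribosomes after termination, rose (0.40 with adjusted p = 0.000264 and 0.37 with adjusted p = 0.00115). Of 8 elongation genes tested, 4 passed in wild-type livers (2 higher, 2 lower) and 5 in K556R livers (2 higher, 3 lower), shares of 50% and 62.5%. Eef2k, the kinase that inhibits elongation factor 2, averaged 10.6 ± 0.943 CPM in wild-type refed and 5.10 ± 1.39 CPM in wild-type fasted livers, and 10.2 ± 1.62 CPM in K556R refed and 3.62 ± 0.731 CPM in K556R fasted livers, with log2 changes of 1.07 (adjusted p = 1.43e-06) and 1.36 (adjusted p = 3.00e-07). Its substrate gene Eef2 fell (-0.62 with adjusted p = 0.000138 in wild-type and -0.52 with adjusted p = 0.0017 in K556R livers), as did Eef1a1 (-0.30 with adjusted p = 0.000429 and -0.24 with adjusted p = 0.00421).

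Of 15 poly(A)-binding and accessory genes, 9 passed in each genotype, 3 higher and 6 lower, a share of 60.0% against 45.1% of all genes in wild-type and 39.9% in K556R livers. The helicase gene Dhx29, which opens structured leaders, averaged 17.9 ± 0.617 CPM in wild-type refed and 10.3 ± 0.465 CPM in wild-type fasted livers and had a log2 change of 0.79 (adjusted p = 2.26e-08) there and 0.80 (adjusted p = 6.09e-08) in K556R livers. Pabpc1, which binds the poly(A) tail, had -0.56 (adjusted p = 6.52e-07) and -0.46 (adjusted p = 1.67e-05), and its partner Paip1 -0.61 (adjusted p = 5.02e-07) and -0.62 (adjusted p = 1.09e-06). Of 6 genes that reverse or modify eIF2 phosphorylation, 4 fell in wild-type and 3 in K556R livers and none rose, where 24.2% and 20.3% of all genes were called lower. Ppp1r15a, the stress-induced subunit of the eIF2α phosphatase also known as GADD34, averaged 9.25 ± 0.658 CPM in wild-type refed and 18.7 ± 4.14 CPM in wild-type fasted livers, with log2 changes of -1.01 (adjusted p = 7.32e-05) and, in K556R livers, -0.81 (adjusted p = 0.00123). Its constitutive counterpart Ppp1r15b had -0.31 (adjusted p = 0.0034) and -0.26 (adjusted p = 0.0178), and the adaptor Nck1 -0.25 (adjusted p = 0.00512) and -0.25 (adjusted p = 0.00745). Of 16 mTORC1 pathway genes tested, 10 passed in wild-type livers (2 higher, 8 lower) and 5 in K556R livers (2 higher, 3 lower). The share of 62.5% lay above the 45.1% of all genes in wild-type livers, and that of 31.2% below the 39.9% in K556R livers. In the edgeR interaction test 0 of the 16 passed, beside 0% of all genes, and 2 had an unadjusted p under 0.05. The genotypes were thus not shown to differ in these genes. Sesn2, the leucine-sensing inhibitor, averaged 4.12 ± 0.255 CPM in wild-type refed and 12.6 ± 3.60 CPM in wild-type fasted livers, with log2 changes of -1.62 (adjusted p = 6.04e-06) and -1.65 (adjusted p = 1.53e-05). Mtor had -0.37 (adjusted p = 6.60e-05) and -0.41 (adjusted p = 6.92e-05), and its partner Mlst8 0.45 (adjusted p = 0.000284) and 0.42 (adjusted p = 0.000993).

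The 4 Argonaute rows, whose proteins carry microRNAs, matched the pattern only through older symbols. Eif2c2, now Ago2, had 15.9, 16.9, 14.4, 14.7 and 15.2 CPM in wild-type refed livers, against 32.7, 32.9, 29.6, 25.4 and 24.5 CPM in wild-type fasted livers. In K556R livers it had 22.4, 15.3, 17.8, 17.0 and 15.9 CPM when refed, against 26.0, 31.6, 30.0, 28.4 and 24.1 CPM when fasted. The groups did not overlap, and the log2 change was -0.91 (SE 0.09, 0.534-fold, adjusted p = 2.74e-07) and -0.59 (SE 0.10, 0.666-fold, adjusted p = 9.03e-05). Eif2c1 was scarce, at 0.431 to 0.671 CPM in wild-type refed and 0.720 to 0.869 CPM in wild-type fasted livers, and passed in wild-type livers alone (-0.50 with adjusted p = 0.0166, beside -0.08 with adjusted p = 0.737 in K556R livers). Eif2c3 and Eif2c4 stayed under 1 CPM in every library and were not called. Between genotypes, Eif2c2 had the lowest p of the matched rows in refed livers, at a log2 change of 0.27 (adjusted p = 0.965).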

How the data were processed

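Poly(A) RNA of mouse liver was sequenced in 20 libraries, and the values used are raw read counts per gene as deposited by the authors in 1 table of 29915 genes, with no normalization. STAR, HTSeq, TopHat, DESeq2, edgeR, STAR-Fusion and the build mm10 are named per the submitters' processing notes. Which tool counted, its strand setting and its annotation are not stated in the labels or the file header, and 0 columns lacked a sample.

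From these counts, genes were kept by filterByExpr (minimum count 10, total 15), which left 13894, scaled by TMM and fitted in edgeR 4.0.16 (limma 3.58.1, R 4.3.3) with robust quasi-likelihood tests in 1 model of the 4 groups and batch. The contrasts were refed minus fasted in each genotype, K556R minus wild type in each feeding state, and their interaction, with Benjamini-Hochberg adjustment over all genes tested and a threshold of 0.05. CPM are on TMM-adjusted library sizes without batch correction, and per-kb levels use exon lengths of GENCODE M21 (GRCm38), which matched all 58 rows, 5 through an older symbol. The script was tested on simulated data. The labels do not say that replicates were separate animals, so each p-value rests on the spread of the libraries, which may be technical. No 2 libraries of a group agreed within sampling noise (lowest chi-square per degree of freedom 11.2). Total counts of 33746054 to 50647297 bound the precision of scarce genes.

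The members and gene lists were chosen with earlier results of these data known. Values in each library are given for up to 2 members per role group with the lowest p on refeeding in wild-type livers. They are also given for all EIF2 kinases and EIF4E-binding proteins, and for the 4 lowest p in each genotype contrast. Outside this rule, such values are shown for Eif4a1, Eif2c2 and Prox1. The promoters and count ratios shown were chosen after the values were seen. Calls and changes of the factor rows, and pooled counts of the gene lists other than markers, were recomputed under alternative settings. These were DESeq2 1.42.0, upper-quartile and RLE factors, and no filter or a CPM of 1 in 5 libraries. Further fits had no batch term, batch 1 alone or a replicate block, or left out each library in turn or both that stood apart. A fit of only the groups compared was run for all contrasts but the interaction. Single genes of the other lists, Argonaute rows, Prox1 and marker calls were not recomputed.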

Additional observations from a re-analysis of the deposited data

Results flagged for a closer look

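Over 228 groups of 5 libraries, 4 for each of the matched rows that passed the low-count filter, 14 held 1 library whose gap to the next exceeded Dixon's critical value of 0.71 times the group's range, where chance flags about 1 in 20. No explanation was tested.

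Wild-type fasted 4_b1 was above its group for Eif2a (54.0 CPM, next 46.0), Eif2b1 (29.4 CPM, next 26.7) and Eif3f (73.6 CPM, next 64.3). Wild-type fasted 3_b1 had 25.2 CPM of the Y-linked Eif2s3y, where the other 4 libraries had 49.5 to 50.6 CPM, and 0.720 CPM of Eif2c1, where the next had 0.834 CPM. Wild-type fasted 1_b2 had 79.6 CPM of Eif3l, with the next at 83.7 CPM. Among wild-type refed libraries, 3_b1 was high for Eif2s3x (55.3 CPM, next 45.8) and 1_b1 for Eif4ebp3 (29.8 CPM, next 17.7).

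Of the 2 libraries that stood apart, K556R fasted 1_b1 was low for Eif2d (3.59 CPM, next 4.71) and Eif4g1 (458 CPM, next 496), and K556R refed 1_b1 was low for Eif3d (53.2 CPM, next 63.5). K556R refed 2_b1 was high for Eif5a (354 CPM, next 318), K556R refed 2_b2 was low for Eif4ebp2 (67.5 CPM, next 77.2), and K556R fasted 4_b1 was low for Eif3m (57.2 CPM, next 60.4).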

How the results depend on the processing

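In wild-type livers 17 of the 21 factor calls, and in K556R livers 11 of the 20, held in all 30 alternative settings, and none of the called rows changed sign. The count called higher in wild-type livers was 10, and it was 21 with upper-quartile scaling and 16 with a CPM of 1 in 5 libraries. In K556R livers the count called higher was 8, and it was 14 with upper-quartile scaling, 5 with a replicate block, 4 in batch 1 alone and 5 in a fit of only the groups compared. In that order, the shares of all genes called in either direction were 46% and 51.4% in wild-type livers. In K556R livers they were 40.5%, 32.5%, 29.5% and 33.4%. These shares join both directions, so they are not a like measure for the counts called higher. Batch 1 alone and the fit of only the groups compared use fewer libraries. With upper-quartile scaling the median log2 change of all genes was 0.06 in both genotypes. At the main settings it was -0.01 in wild-type and 0.01 in K556R livers. The cause of the other shifts was not tested. Leaving out 1 library gave 7 (without wild-type fasted 1_b1 or wild-type refed 3_b1) to 16 (without wild-type fasted 4_b1) called higher and 10 to 12 called lower in wild-type livers, and 6 to 10 higher and 8 (without K556R refed 2_b1) to 13 lower in K556R livers. With each named library left out, in that order, 42%, 40.5% and 42.3% of all genes were called in either direction in wild-type livers and 35.6% in K556R livers. The genotype contrasts and the interaction called 0 factor rows in all settings. Same-numbered libraries of different groups correlated at -0.37 to 0.65 in their deviations, in mixed directions. The value of 0.65 joined K556R fasted 1_b1 and K556R refed 1_b1, the libraries that stood apart, and the next highest was 0.19. The labels do not say what a number pairs, so the numbers were not taken as pairs. Eif6, called in neither genotype, had log2 changes in K556R livers of -0.00197 without K556R fasted 2_b1 and -0.00950 without K556R refed 2_b1, with leave-one-out values up to 0.0917. Eif3a and Eif4e2 lost their K556R call without both libraries that stood apart (adjusted p = 0.131 and 0.105 in edgeR). Ordered without length, 8 of the 10 highest factor rows were the same.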
